A study of Mus musculus with 6 samples.

Results

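The genes of cytoplasmic ribosomal proteins were examined in mouse lung tumour cells after a reagent meant to raise Malat1, a nuclear long noncoding RNA. Members were the rows of the exonic table whose symbol is RPL or RPS followed by a number (with or without a final A or L), by P0 to P2, or by A. This gave 75 genes of 17842, of which 45 belong to the large subunit by name and 30 to the small subunit. In the intronic table, 66 of them were among 13738 genes, 38 large and 28 small. The 6 libraries held polyadenylated RNA of live, CD45-, Epcam+ and GFP+ cells (sorted to lack a leukocyte protein and carry an epithelial one) from lungs 16 weeks after tumours were started, each library from a different animal. All animals were K-rasG12D+, p53-/- and Cas9+GFP+, and so carried an active Ras allele, had lost the p53 tumour suppressor and expressed the Cas9 nuclease with a fluorescent marker. Controls, 3 libraries, had received Con dRNA, and the other 3 had received mA1 dRNA. The sources used here do not state how the tumours were started or which promoter drives the dRNA, and Malat1 itself was not analysed here.

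Each ribosome needs 1 copy of nearly every ribosomal protein, and their messenger RNAs are among the most abundant in growing cells. These messages are short and begin with a C followed by a run of pyrimidines, the 5′ terminal oligopyrimidine (TOP) motif, through which mTOR signalling controls their translation. MYC and other growth signals raise ribosome production in many tumours, and a shortage of single ribosomal proteins can free the 5S particle to stabilise p53, a protein lost here in every group.

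A feature of these genes that can be read directly is the sequence at their start sites. RefSeq start sites on GRCm38.p6 were matched by symbol for 53 of the 75 members, 32 large and 21 small. In the 30 bases from 10 before to 20 after the start, on the gene's strand, 19 of 53 members (35.8%) held a run of at least 8 bases that were all C or T. That run stood in 11.1% of the 10899 genes tested that had a start site in the table, and in 8.96% of 67 mitochondrial ribosomal protein genes. The reverse pattern, at least 8 bases that were all A or G, stood in 2 members (3.77%) and in 11.4% of those genes. Runs of at least 12 were found in 7 members (13.2%) and in 2.11% of the genes tested. The windows below are shown because they belong to members that the results turn on, 4 with a long run and 4 with a shorter one. Capitals mark the longest run of C and T.
Rpl14: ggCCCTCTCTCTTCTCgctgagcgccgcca
Rpl35: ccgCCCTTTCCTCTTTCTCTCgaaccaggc
Rplp2: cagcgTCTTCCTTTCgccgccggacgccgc
Rps12: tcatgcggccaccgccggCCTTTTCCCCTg
Rplp0: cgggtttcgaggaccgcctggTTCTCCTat
Rpl5: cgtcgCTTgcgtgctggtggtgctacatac
Rpsa: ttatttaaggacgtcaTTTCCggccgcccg
Rps19: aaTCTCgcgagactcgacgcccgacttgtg
The window of Rpl14 is at chr9:120571507-120571536 on the plus strand and that of Rpsa at chr9:120127756-120127785 on the plus strand. Rps12 is at chr10:23787190-23787219 on the minus strand, Rpl35 at chr2:39005112-39005141 on the minus strand and Rplp2 at chr7:141447641-141447670 on the plus strand. Rplp0 is at chr5:115559457-115559486, Rpl5 at chr5:107900518-107900547 and Rps19 at chr7:24884582-24884611, all on the plus strand. An annotated start can lie some bases from the start used in these cells, so that a short run in this window describes these letters only. In the whole 300 bases, from 250 before to 50 after the start, CCGGAAG on either strand stood in 22 of 53 members (41.5%). It stood in 16.9% of the genes tested and in 34.3% of the 67 mitochondrial ribosomal protein genes, nearer to the members. Its reverse complement can overlap a C and T run. TATAAA on either strand stood in 3 members (5.66%) and in 7.90% of the genes tested. Between mA1 and control libraries, as described below, the median log2 fold change was −0.08 both for members with a run of at least 8 (15 of 19 negative) and for the others (29 of 34 negative).

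Values are normalised read counts, that is, reads divided by 1 size factor per library, and fold changes are mA1 against control on the log2(value + 10) scale. Libraries held between 71093708 and 85248140 exonic reads and between 7200660 and 11422283 intronic reads. All 75 members passed the filter on low values, which asked for 10 or more in 3 or more libraries. The sum over epithelial markers was 1269450 to 1723610 in controls and 780238 to 1045550 in mA1 libraries, all 6 markers being lower. Alveolar type 2 markers summed to 978585 in control 1 and to between 8784080 and 13894000 in the other 5 libraries. All 10 of these markers, also of epithelial cells, had a positive log2 fold change in mA1 libraries, with a median of 1.14. Of 14 leukocyte markers 10 were measured, with sums of 1697 to 2479 in controls and 924 to 2148 in mA1 libraries, and no measured marker of any list was at 0 in all libraries. The part of these differences in the results below was not tested, and in bulk RNA fewer cells of a type and less RNA per cell cannot be told apart.

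Most ribosomal protein genes had slightly lower exonic values in mA1 libraries, and no single gene passed the test. Of 75 members, 62 had a negative log2 fold change and 13 a positive one, where 46.2% of the 16606 genes tested were negative. The large subunit had 36 of 45 negative and a median of −0.09 (log2), and the small subunit had 26 of 30 and −0.10. The median over all genes tested was 0.04, and 42 large and 25 small members lay within 0.25 of 0. The median change in the mean value was −6.44% in the large subunit and −6.46% in the small. The SE of a member's log2 fold change had a median of 0.12 in the large subunit and 0.13 in the small, larger than the typical difference itself.

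No member was called at an adjusted p of 0.05 by limma, in which 0.00602% of all genes were called. At an unadjusted limma p under 0.05, 1 member was lower (Rps12), against 7.47% of all genes, and 1 was higher (Rps4l), against 5.15%. No member was called by edgeR's quasi-likelihood test (0% of all genes), by DESeq2's Wald test (2.75%) or in the authors' deposited table (2.91%). At an unadjusted p under 0.05, each of these gave 2 members. Of the 16606 genes tested, 1739 (edgeR), 2154 (DESeq2) and 2152 (authors' deposited table) were under that bound. The groups did not overlap, with mA1 lower, in 12 members (16.0%), against 9.92% of all genes. Among these were Rpl3, Rpl5, Rpl8, Rpl27a, Rpl28, Rpl31 and Rpl34 in the large subunit and Rps12, Rps15 and Rps16 in the small. Of the 12, 3 were positive in the fit with a GC correction, Rpl8 (0.09), Rpl31 (0.11) and Rps15 (0.13). In the other direction it was 1 member, Rps4l, against 9.25% of all genes.

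**Figure D1:**
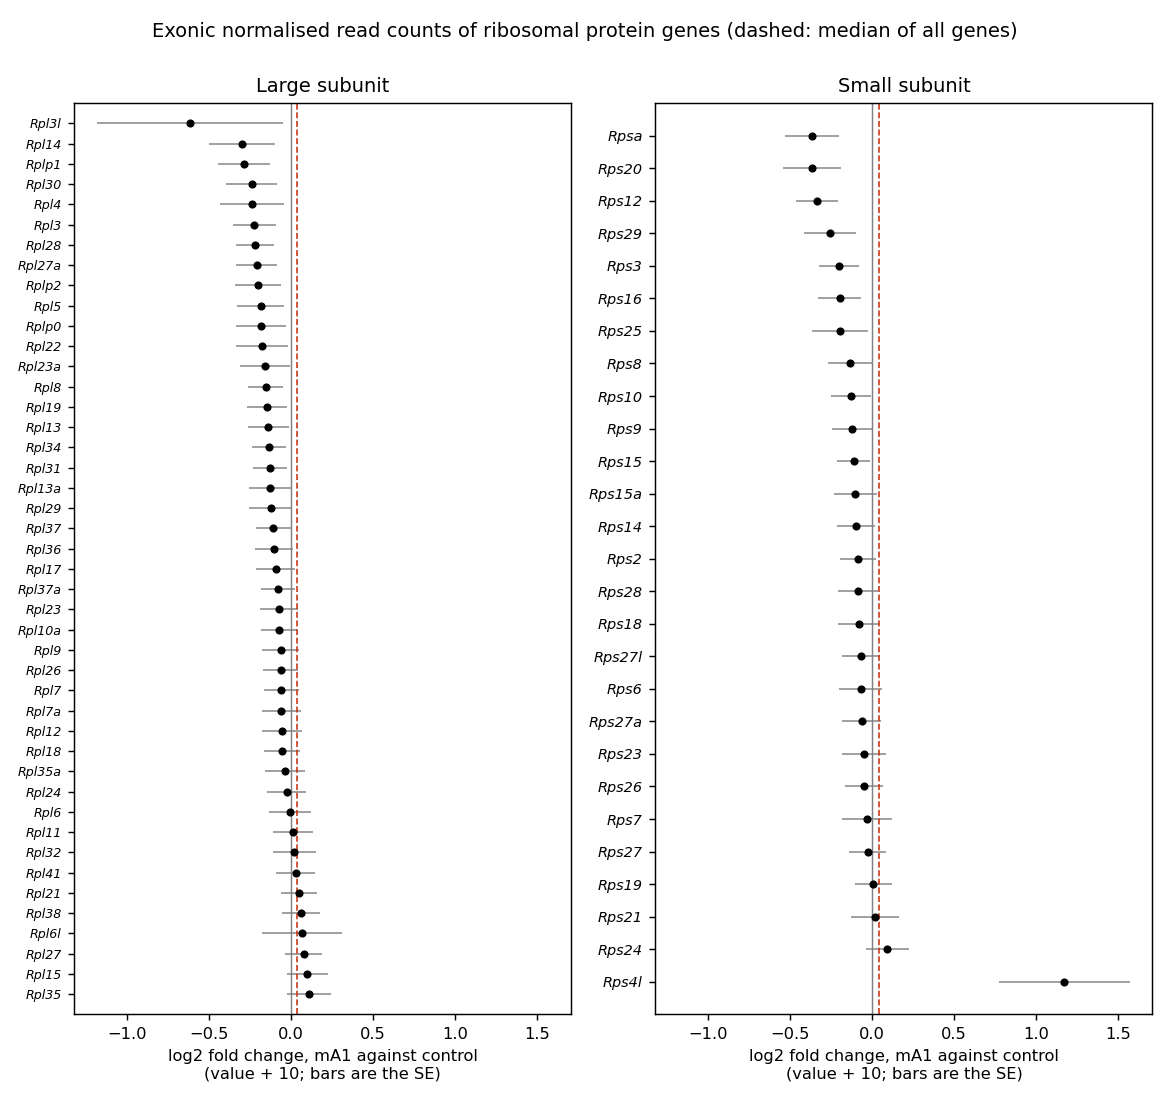
Log2 fold change of each ribosomal protein gene between 3 mA1 and 3 control libraries (x axis, exonic values + 10; points, estimates; bars, SE), large subunit left and small subunit right, with the median of all genes dashed. A few members that are not reported singly are not drawn, most estimates lie left of 0, and Rpl3l and Rps4l stand apart from the rest.

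Lower values were not evenly spread over the libraries. The median over members of the log2 deviation from the gene's own mean was 0.12 in control 1, −0.02 in control 2 and 0.04 in control 3. In the mA1 libraries it was −0.08, −0.11 and 0.02, so that mA1 library 3 stood above control library 2 and the groups overlapped. Of the 75 members, 46 were highest in control 1 and 36 were lowest in mA1 library 2, while none was lowest in control 3. Control 1 is also the library with the low sum of alveolar type 2 markers. Its sum of fibroblast and mural cell markers was the highest, 6326 against 809 to 2663 in the others. Without control 1 the median log2 fold change was −0.05 in the large subunit (35 of 45 negative) and −0.06 in the small (23 of 30 negative).

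The summed members took 2.76%, 2.27% and 2.46% of exonic reads in the 3 control libraries and 2.36%, 2.28% and 2.43% in the 3 mA1 libraries. The difference of the means was −0.142 percentage points, with controls 1 and 3 above all mA1 libraries and control 2 below them, and −0.0122 points without control 1. Large subunit genes took 1.42% to 1.74% in controls and 1.43% to 1.52% in mA1 libraries, and small subunit genes 0.854% to 1.02% and 0.848% to 0.919%. Both ranges overlapped.

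**Figure D2:**
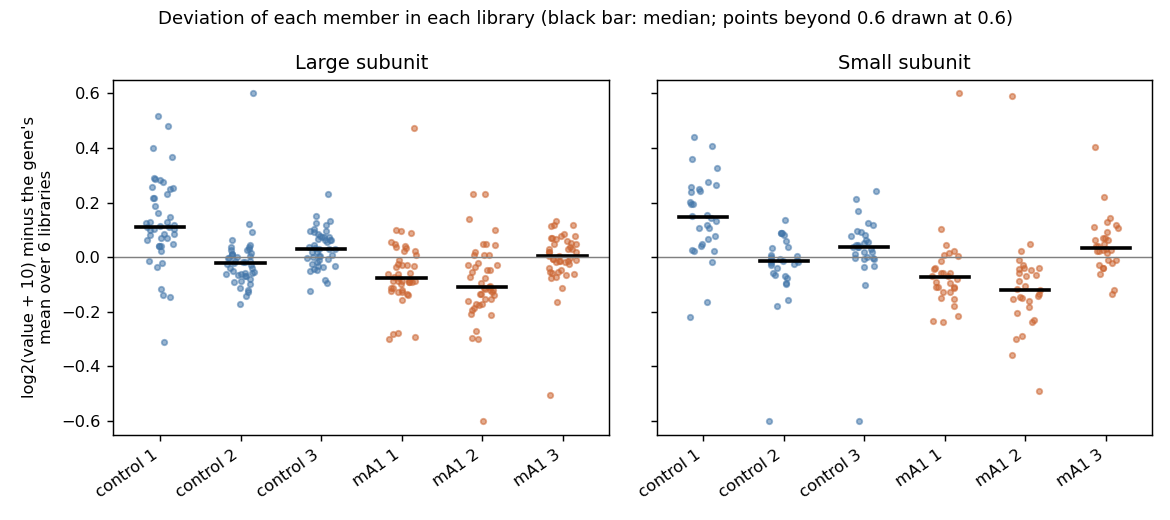
Log2 deviation of each member from its own mean over 6 libraries (y axis) in every library (x axis), large subunit left and small subunit right, with black bars for medians. Control 1 has the highest medians, 0.11 and 0.15, and mA1 library 2 the lowest, −0.11 and −0.12, while mA1 library 3 lies above control 2.

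Members tended to move together from library to library. The Pearson correlation of a member with the median of the other members over the 6 libraries had a median of 0.79, and 55 of 75 (73.3%) were above 0.5, against 25.7% of all genes tested. The points share library and size factor, and the correlation is given as a description. Profiles most like the rest were those of Rpsa (0.98), Rps3 (0.98), Rps10 (0.97) and Rpl28 (0.97). In 9 members it was negative, with Rpl21 (−0.85), Rpl41 (−0.76) and Rpl15 (−0.55) the most so, genes named here after their values were seen. Rpl21, a large subunit protein, had 27153, 29739 and 30065 normalised counts in controls and 30221, 30454 and 29122 in mA1 libraries, its lowest value being in control 1, where most members were highest.

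Levels are comparable between genes only per length, here per kilobase of the principal coding transcript. On that scale the mean over 6 libraries had a median of 28567 in the large subunit and 22595 in the small. The highest were Rpl32 (106511), Rps18 (101915), Rps27 (93535) and Rps14 (92175), and the 5 lowest were the copies Rpl3l, Rpl6l and Rps4l, and Rps20 and Rps15a, whose annotated transcripts are long (3706 and 5130.0 bases). Members had a median transcript length of 802 bases in the large subunit and 756 in the small, against 2771 for all protein-coding genes tested, and a median of 5 exons against 9. Their GC content was near that of all genes, with medians of 52.5% and 52.8% against 50.8%. Across members, the log2 fold change had a Spearman correlation with transcript length of −0.26 in the large subunit and −0.17 in the small, and with GC content of 0.06 and 0.04, values across genes that are not independent replicates. In the fit with a GC correction, the negative counts were 30 of 45 and 22 of 30, with medians of −0.08 and −0.09 beside 0.01 for all genes. In that fit 12 members turned from negative to positive and 2 from positive to negative.

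The P stalk, the flexible arm of the large subunit that recruits elongation factors, had lower mean values for all 3 of its proteins, none past the test. Rplp0, its base, had 140327, 117933 and 113270 normalised counts in controls and 108147, 101357 and 117431 in mA1 libraries, with mA1 library 3 inside the control range. The acidic protein Rplp1 had 25404, 19267 and 19650 in controls and 15721, 17093 and 19797 in mA1 libraries. The difference was −0.28 ± 0.16 (log2, SE) with a limma adjusted p of 0.497. Rplp2, its partner, had 14726, 12245 and 12930 in controls and 12796, 10078 and 11920 in mA1 libraries. In all 3 genes control 1 was highest, and the groups overlapped. Without control 1 the log2 fold change was −0.09 for Rplp0, −0.16 for Rplp1 and −0.12 for Rplp2, and without mA1 library 2 that of Rplp2 was −0.10. With the GC correction Rplp1 was at −0.06 and Rplp2 at −0.08.

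Rpl5 and Rpl11 bind 5S ribosomal RNA and, when free, the p53 inhibitor Mdm2. Rpl5 had 30840.3, 22797 and 23644 in controls and 22481, 22717 and 22159 in mA1 libraries, so that the groups did not overlap but 2 controls lay close to the mA1 values. Its log2 fold change was −0.18 ± 0.14 (SE), with a limma adjusted p of 0.625, and −0.05 without control 1. Rpl11 had 17487, 15935 and 17132 in controls and 17173, 15422 and 18532 in mA1 libraries, and the groups overlapped throughout. The 2 genes of the particle therefore had different values, a difference that was not itself tested.

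Other large subunit genes ranged from −0.30 to 0.11, leaving out Rpl3l. Rpl14, a surface protein of the large subunit, had the most negative value, with 44612, 29689 and 31249 in controls and 25329, 25859 and 33869 in mA1 libraries. Control 1 was far above the other libraries, mA1 library 3 exceeded the other 2 controls, and the limma adjusted p was 0.569. Its log2 fold change was −0.30, and −0.12 without control 1. Rpl4, which lines the exit tunnel, had 141722, 96003 and 98442 in controls and 83577, 93369 and 105038 in mA1 libraries (−0.24, and −0.05 without control 1). Rpl30 had 3573 ± 382 in controls and 3028 ± 380 in mA1 libraries (SD, n = 3), and 1 mA1 library lay within the control range.

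Around the exit tunnel, where nascent chains leave, 6 of 7 genes were negative (46.2% of all genes, as above) with a median of −0.13. Of the 7, 1 gene, Rpl31, had no overlap with mA1 lower (9.92% of all genes, as above). Rpl31 had 12139.7 ± 249 in controls and 11116 ± 434 in mA1 libraries (SD, n = 3), and its log2 fold change was −0.13, and 0.11 with the GC correction. At the other end were Rpl35, also at the tunnel exit, Rpl15 and Rpl27. Rpl35 had 29060, 25045 and 27580 in controls and 26543, 33132 and 28603 in mA1 libraries (0.11 ± 0.13, log2, SE). Rpl15 had 34390 ± 3661 and 36750 ± 1718, and Rpl27 had 14536 ± 171 and 15383 ± 1224 (SD, n = 3), both overlapping. None of these departures exceeded the spread between libraries by the test.

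**Figure D3:**
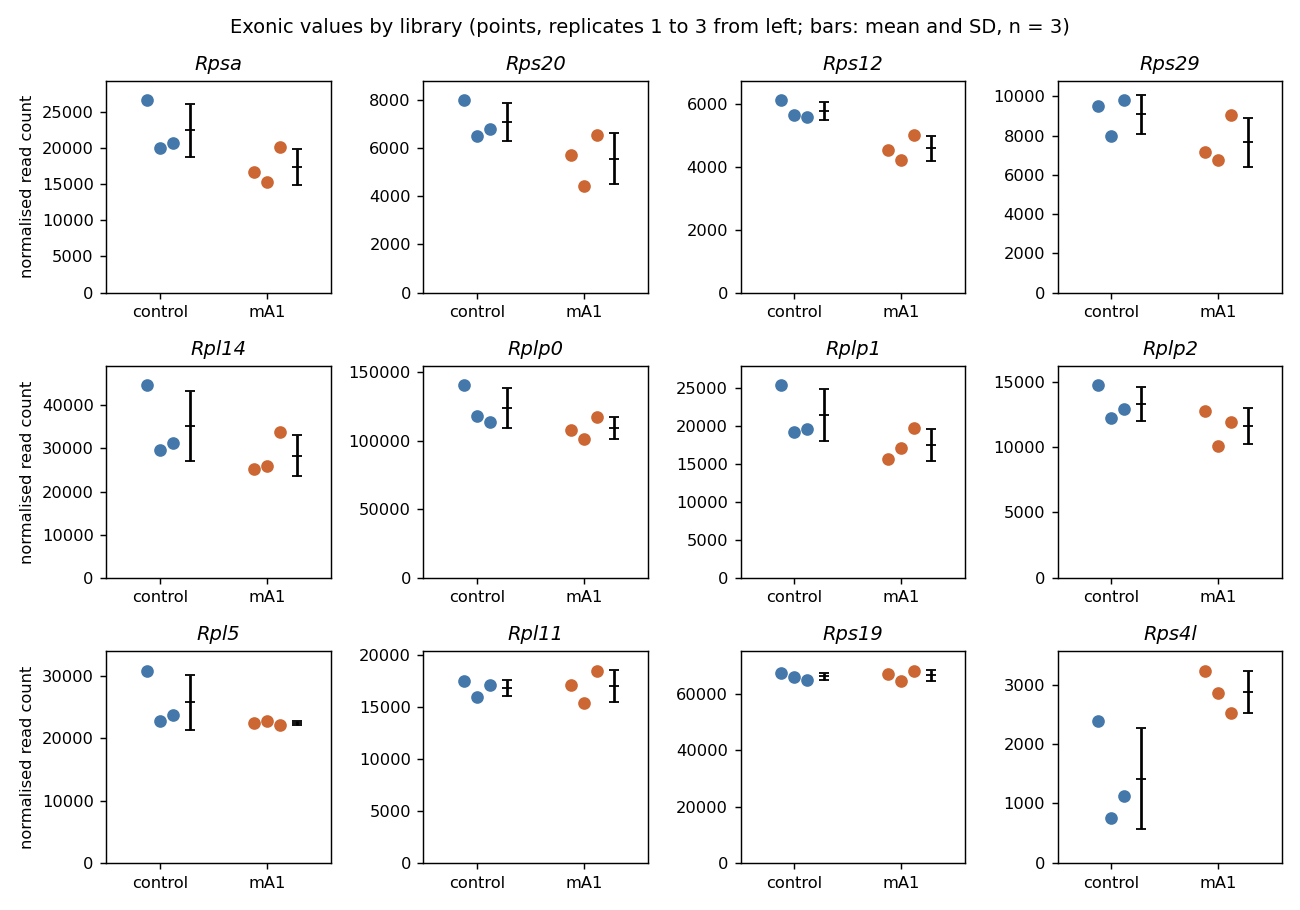
Exonic normalised read counts (y axes from 0) of 12 members in each library, control left and mA1 right, with the mean and SD of 3 libraries beside the points. Rps12, Rps4l and Rpl5 show no overlap between groups, Rps19 has nearly equal groups, and in Rpl14 and Rpl5 the first control stands above the rest.

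In the small subunit the head, which contacts messenger and transfer RNA, had 13 of 14 genes negative with a median of −0.16, and 5 of the 14 (9.92% of all genes, as above) had no overlap with mA1 lower. Body and platform genes were negative in 12 of 14 with a median of −0.08, and none was without overlap. The difference between these lists was not tested. Rps12, a head protein, had 6124, 5669 and 5594 in controls and 4552, 4220 and 5014 in mA1 libraries, every mA1 value below every control. Its log2 fold change was −0.34 ± 0.13 (SE), with a limma p of 0.0318 and an adjusted p of 0.360, and it lay between −0.40 and −0.28 when single libraries were left out. The authors' deposited table gives an adjusted p of 0.243 for it.

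Rpsa, which sits at the back of the small subunit and also serves as the laminin receptor, had the most negative estimate of the small subunit. Its values were 26555, 20014 and 20621 in controls and 16613, 15261 and 20112 in mA1 libraries, with mA1 library 3 just above control 2. The log2 fold change was −0.37 ± 0.17 (SE) with a limma adjusted p of 0.419, −0.24 without control 1 and −0.18 with the GC correction. Rps20, a head protein, had 7982, 6483 and 6773 in controls and 5695, 4423 and 6521 in mA1 libraries, and Rps29, a small zinc-binding head protein, had 9094 ± 996 and 7648 ± 1248 (SD, n = 3). Their groups overlapped through mA1 library 3 in both genes. Rps20 was at −0.36, at −0.21 without mA1 library 2 and at −0.56 with the GC correction, and Rps29 at −0.26 and at −0.17 without mA1 library 2.

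In the small subunit, Rps19 and Rps21 had almost the same mean in both groups. Rps19, the gene most often mutated in Diamond-Blackfan anaemia, had 67712, 66282 and 65059 in controls and 67179.6, 64607 and 68414 in mA1 libraries (0.01 ± 0.12, log2, SE). Its log2 fold change was 0.23 with the GC correction. Rps24 had 12487 ± 1335 and 13287 ± 878, and Rps21 had 4446 ± 626 and 4479 ± 266 (SD, n = 3). Of the abundant genes, Rps18 had 58726 ± 3925 and 55419 ± 2899, and Rps14 had 56889 ± 1214 and 53168 ± 2899 (SD, n = 3), all overlapping. The means of Rps18 and Rps14 changed by −5.63% and −6.54%, near the subunit's median of −6.46%. Rps6, the S6 kinase substrate, had 39702 ± 2454 and 37952 ± 3953 (SD, n = 3). Over the 18 Diamond-Blackfan genes that are members, 12 were negative with a median of −0.04, and 9 with a median of −0.01 under the GC correction.

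Among copies related to other members, Rps4l had the most positive log2 fold change of all members. Rps4l, at chr6:148354656-148355598 on the plus strand in GENCODE on GRCm38, has 1 exon and is annotated as a transcribed processed pseudogene. It had 2388, 754 and 1119 in controls and 3237, 2866 and 2521 in mA1 libraries, so that every mA1 library was above every control. The log2 fold change was 1.17 ± 0.40 (SE), with a limma p of 0.0214 and an adjusted p of 0.323, an edgeR adjusted p of 0.467 and 0.229 in the authors' deposited table. It lay between 0.80 and 1.63 when single libraries were left out. Reads that also match the parent gene Rps4x could be assigned to either, so its value is uncertain.

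Rpl6l, annotated as a processed pseudogene with 1 exon, had 553 ± 29 in controls and 582 ± 81 in mA1 libraries (SD, n = 3), and it too may share reads with its parent. Rps27l, a p53 target related to Rps27, had 8331 ± 380 and 7943 ± 548 (SD, n = 3). Rpl3l, the muscle form of Rpl3, was near the detection limit, with 4.94, 27.0 and 11.7 in controls and 15.7, 0 and 3.03 in mA1 libraries. Of 65 further rows named as pseudogenes of ribosomal proteins, 63 were tested and 41 were negative, with a median of −0.08 (34 and −0.07 under the GC correction), and these too may hold reads of their parents.

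Intronic reads, which unspliced RNA can give, showed wide scatter in these genes. The ratio of exonic to intronic values was 5.43 at the lowest over the 66 members, and the median intronic mean was 144 in the large subunit and 101 in the small. Of the large subunit genes 21 of 38 were negative with a median of −0.09, and of the small 16 of 28 with a median of −0.04, where 48% of all 12791 genes were negative with a median of 0.03. The large median was −0.24 without control 3. The small one was positive without any 1 of the controls (0.02, 0.06 and 0.05) and without mA1 library 3 (0.14). No member was called at an adjusted p of 0.05 by limma (0% of all genes) or edgeR (0%), or by DESeq2 (1.05%) or in the authors' deposited table (1.05%). At an unadjusted p under 0.05, limma gave 1 member, lower, against 5.01% of all genes lower and 5.49% higher. The other 3 gave 0 members, against 1030 (edgeR), 1226 (DESeq2) and 1225 (authors' deposited table) of the 12791 genes. Groups did not overlap in 8 members with mA1 lower, against 8.62% of all genes, and in 3 with mA1 higher, against 8.13%.

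That member was Rplp2, with intronic values of 218, 270.1 and 264 in controls and 175, 122 and 64.2 in mA1 libraries. Its intronic log2 fold change was −1.09 ± 0.48 (SE), with a limma p of 0.0458 and an adjusted p of 0.466. Rpl23a, an exit tunnel protein whose exonic values overlapped, had intronic values of 468, 529.9 and 479.8 in controls and 438, 156 and 296 in mA1 libraries. Rpl13a, whose introns host small nucleolar RNAs, had 1102, 1128 and 824 against 658, 689 and 814, and Rpl36 had 545, 690.1 and 949 against 416, 584 and 374. The first 2 of these 3 had no overlap, and Rpl36 did.

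In the small subunit the smallest intronic p values lay on both sides. Rps16 had intronic values of 121, 71.1 and 17.3 in controls and 114, 81.3 and 230.0 in mA1 libraries. Rps9 had 95.0, 100.8 and 84.4 against 67.9, 51.9 and 42.4, with no overlap, and Rps6 had 187, 90.5 and 72.9 against 161, 141 and 225. The values came from few reads and the groups of Rps16 and Rps6 overlapped.

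Exonic and intronic differences were compared within each library. Of 66 members, 39 had a more negative exonic than intronic difference, where 53.1% of 11656 genes did, and the median was −0.04, the same as for all genes. None was called by limma (0% of all genes), and 2 were at an unadjusted p under 0.05, against 7.27% of all genes. One of them was Rpl21 (−0.81 ± 0.32, SE, adjusted p = 0.677). Both signs were negative in 32 members, exonic alone in 24, intronic alone in 5 and neither in 5. The SD of the log2 fold change across these members was 0.10 in exons and 0.48 in introns.

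**Figure D4:**
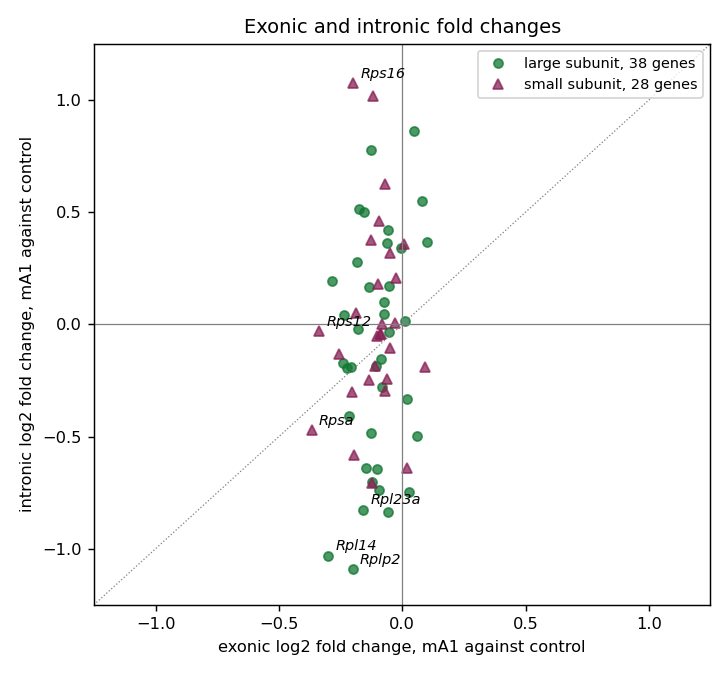
Exonic (x axis) against intronic (y axis) log2 fold change of 66 members, large subunit as circles and small as triangles, with equality dotted. Points spread over −1.09 to 1.08 in introns and over −0.37 to 0.10 in exons.

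Other genes of protein synthesis were described from fixed lists. Ribosomal proteins whose names fall outside the rule had 6 of 7 negative with a median of −0.13 (4 of 7 and −0.08 under the GC correction), among them Rps3a1 (38120 ± 2820 in controls and 33820 ± 3046 in mA1 libraries, SD, n = 3) and Fau, which encodes a small subunit protein fused to a ubiquitin-like domain. Elongation factors and other messages of the TOP class had 17 of 20 negative with a median of −0.14. Eef1a1, the factor that brings transfer RNA, had 321858, 204844 and 213160.0 in controls and 186230.0, 185040.0 and 213486 in mA1 libraries, so that control 1 stood far above the others. Pabpc1, the poly(A)-binding protein, had 104108 ± 21347 and 81145 ± 12529 (SD, n = 3), overlapping. No gene of these lists was called by limma.

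Mitochondrial ribosomal proteins, which serve a separate ribosome, had 28 negative and 50 positive of 78, with a median of 0.06, close to that of all genes, and of −0.01 without mA1 library 2. The abundant Mrpl28 had 10452 ± 415 and 10394.5 ± 1207 (SD, n = 3). Mrpl9 was the single one at an unadjusted limma p under 0.05, with 2931 ± 254 in controls and 2263 ± 180 in mA1 libraries (SD, n = 3, adjusted p = 0.378 in limma). Other initiation factors had 12 of 21 negative with a median of −0.00497, and Eif5a had 97116 ± 2989 and 93194.5 ± 4786 (SD, n = 3). Genes of ribosome assembly had 18 negative and 31 positive, with a median of 0.05, but 27 of 49 negative with a median of −0.05 under the GC correction. Ncl, nucleolin, had 30927 ± 4517 and 31232 ± 571 (SD, n = 3), and 3 genes were at an unadjusted p under 0.05, all higher, beside 5.15% of all genes. They were Mdn1, an ATPase that remodels the large subunit precursor (0.99 ± 0.34, SE), Wdr43 (0.32 ± 0.13) and Gnl3 (0.34 ± 0.14), with limma adjusted p of 0.330, 0.382 and 0.379. These 3 and Mrpl9 were named after their values were seen. RNA polymerase I genes had 13 of 19 negative with a median of −0.07, and snoRNA host genes 2 of 6 with a median of 0.05 (−0.02 under the GC correction).

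Regulators of ribosomal protein genes and of TOP translation had 12 of 18 negative with a median of −0.10 (0.02 without control 1). At an unadjusted limma p under 0.05, 2 were lower and 2 higher, beside 7.47% and 5.15% of all genes. None was called by limma in exons, and these 4 were named after their values were seen. Groups did not overlap in 3 with mA1 lower and 3 with mA1 higher, beside 9.92% and 9.25% of all genes. Tsc2, a brake on mTOR, had 4166, 4819 and 6424 in controls and 3515, 2657 and 3121 in mA1 libraries (adjusted p = 0.277), every mA1 value below every control. Eif4ebp2, which holds back cap-dependent translation, had 1044 ± 171 and 671 ± 65 (SD, n = 3). The S6 kinase gene Rps6kb1 had 5600 ± 654 in controls and 7196 ± 579 in mA1 libraries (SD, n = 3), with no overlap. Mycn, a MYC family gene, had 185, 839 and 1604 in controls and 2551, 2750.5 and 2365 in mA1 libraries, with wide spread among controls. Myc itself had 10672 ± 5231 and 8810 ± 354 (SD, n = 3), overlapping. In introns, DESeq2 and the authors' deposited table each called 1 of the 18 regulators at an adjusted p of 0.05 (1.05% of all genes in both). There limma and edgeR called 0.

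**Figure D5:**
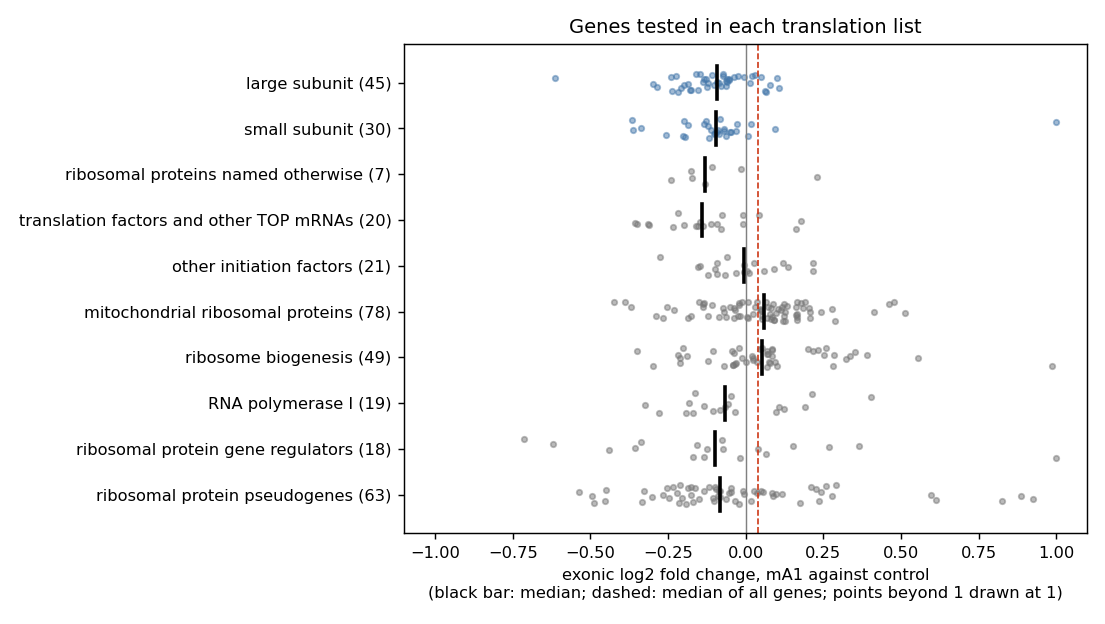
Exonic log2 fold changes (x axis) of the genes tested in each translation list, with black bars for medians and the median of all genes dashed at 0.04. The 2 subunits, the ribosomal proteins named otherwise and the TOP messages have medians of −0.09 to −0.14 (−0.08 to −0.16 under the GC correction). Regulators have −0.10, pseudogenes −0.08, RNA polymerase I genes −0.07 and other initiation factors −0.00497. Mitochondrial ribosomal proteins and assembly genes have 0.06 and 0.05, which are 0.02 and −0.05 under the GC correction.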

How the data were processed

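Values are the authors' deposited normalised signal: per the file headers and the values, read counts divided by 1 size factor per library, in an exonic and an intronic table. The tools named, with no roles, per the submitters' processing notes are HTSeq 1.99.2, TopHat2 2.1.1 and DESeq2, on mm10, and per the labels' protocols the low-input kit marks no strand. All values were whole multiples of 1 step per library (tolerance 0.05), although in exonic mA1 libraries 2 and 3 the step is near 1. The authors' deposited comparison gives log2 fold changes, a test score (fold change over its SE), p-values and adjusted p-values.

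The planned edgeR test was for raw counts; limma 3.58.1 (R 4.3.3) with a mean-variance trend was fitted on log2(value + 10) to all genes with at least 10 in at least 3 libraries, adjusted over all genes by Benjamini-Hochberg at 0.05. edgeR 4.0.16 and DESeq2 1.42.0 on recovered reads were alternatives, as were pseudocounts of 1 and 50, other scalings, no filter, a GC correction (spline, 5 degrees of freedom), the replicate block and leaving out each library. The script was tested on simulated data. Transcript length, GC and positions came from GENCODE, matched for 96.2% of exonic genes, and start sites from RefSeq (GRCm38.p6).

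Members and lists were chosen with earlier results of these data known. Named members were, per subunit, the 4 most negative, the 4 most positive and the 3 of highest mean (mean of at least 100), the 2 of largest spread, the 4 with the smallest intronic p, copies, P stalk and 5S genes; of other lists at most 4. Genes outside this rule were named after their values were seen. A few single members are not reported here.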

Additional observations from a re-analysis of the deposited data

How the results depend on the processing

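No member was called in exons or introns, nor in the exonic against intronic comparison, under any alternative run. The exonic medians were −0.0934 (large subunit) and −0.0964 (small subunit) with the replicate block as without it. Each replicate number stands in both groups. The block can therefore change the SE and p of a log2 fold change but not its size. Same-numbered libraries had correlations of 0.0187, 0.0659 and −0.102 in exons, and differently numbered ones −0.178 to 0.173. These are correlations of deviations from group means of 3 libraries. They cannot decide whether the numbers pair the libraries. Leaving out single libraries gave medians of −0.132 to −0.0484 (large, exonic), −0.136 to −0.0591 (small, exonic), −0.241 to −0.0377 (large, intronic) and −0.0439 to 0.136 (small, intronic). The lowest large intronic value came without control 3, and the highest small one without mA1 library 3. The small intronic median was also positive without any 1 control and when scaled by total reads (0.00444). The exonic against intronic median ranged from −0.160 (without mA1 library 3) to −0.00191. The median of the mitochondrial list was −0.0139 without mA1 library 2, and that of the regulators 0.0223 without control 1.

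Some genes turned sign, and the cause was not tested. With the GC correction 14 of 75 members did, among them Rpl8 (0.0905), Rpl13 (0.0749), Rpl31 (0.105), Rps10 (0.160) and Rps15 (0.126), and the assembly list had a median of −0.0470. In that fit Rpl36 was at 0.189, Rps14 at 0.00896 and Rps24 at −0.0287. Rps19 kept its sign there but was at 0.228. Leaving out single libraries gave −0.0491 to 0.0833 for Rpl11, −0.0325 to 0.165 for Rpl6l, −0.0101 to 0.0312 for Rps19, −0.0596 to 0.129 for Rps21 and −0.133 to 0.0166 for Rps6. With 3 libraries a group and SEs near 0.12, differences of the size of the medians could not be told from the spread for single genes.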
